A study of Mus musculus with 29 samples.

Results

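Baiap2l2 and Gpnmb were 2 of the 19577 genes measured in all 18 brain libraries of a single-cell study of stroke in mice. They were selected on these measured values: their counts in microglia of young mice were at or near 0 after sham surgery and at 2 days after stroke and were higher at 14 days. The levels in monocyte-derived cells and in aged mice were in view as well, so all levels of both genes are described here and no test of them is given. For Gpnmb the data went against a purely microglial label, since its level was higher in monocyte-derived cells. The counts of Baiap2l2 were nearly all in microglia.

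Cells were profiled by Drop-seq, which captures each cell in a droplet with a barcoded bead. Stroke was induced by blocking the middle cerebral artery for a limited time, and controls underwent sham surgery. All mice were of the strain C57BL/6J, and each brain library pooled 4 to 5 hemispheres, which were digested in the presence of a transcription inhibitor and sorted into CD45-high leukocytes, microglia and endothelial cells. Young males of 8 to 10 weeks gave 4 libraries at day 2 after sham surgery, 4 at day 2 after stroke and 4 at day 14 after stroke. Aged mice of 17 to 20 months gave 2 sham libraries at day 2 (1 male, 1 female), 3 stroke libraries at day 2 (1 male, 2 female) and 1 stroke library at day 14 (female). The tables of the aged libraries hold 27514 genes and those of the young brain libraries 19704. Age therefore goes with a separate gene table, and the 2 cannot be told apart at any time. Sham surgery was followed to day 2 alone, so time after surgery and stroke cannot be told apart at day 14. The study also has 11 blood libraries, in which these genes were not analysed here.

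Gpnmb encodes a transmembrane glycoprotein of endosomes, lysosomes and the cell surface that is related to the melanosomal protein Pmel. It is known from melanocytes, osteoclasts and lipid-laden macrophages, it is a target of the lysosomal transcription factors of the MiT/TFE family, and its outer part, which can be shed by Adam10, binds integrins, the syndecan Sdc4 and Cd44. Baiap2l2 encodes a protein with an inverse BAR (I-BAR) domain, a membrane-binding domain of proteins tied to actin. It is best known from epithelial cells and from the stereocilia of hair cells. Microglia are the resident macrophages of the brain, while monocyte-derived cells enter it from the blood after injury.

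Gpnmb (ENSMUSG00000029816.10) lies on the forward strand at chr6:49036546-49070929 and Baiap2l2 (ENSMUSG00000018126.15) on the reverse strand at chr15:79258195-79285537, both in GRCm38 and GENCODE M21, where neither overlaps another gene. The promoter of Gpnmb is shown because the gene is known as a target of MiT/TFE factors, which bind E-box and M-box motifs. Its sequence is credited to RefSeq (GRCm38.p6) and runs along the forward strand over chr6:49036268-49036545, up to the base before the GENCODE start.

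Gpnmb promoter: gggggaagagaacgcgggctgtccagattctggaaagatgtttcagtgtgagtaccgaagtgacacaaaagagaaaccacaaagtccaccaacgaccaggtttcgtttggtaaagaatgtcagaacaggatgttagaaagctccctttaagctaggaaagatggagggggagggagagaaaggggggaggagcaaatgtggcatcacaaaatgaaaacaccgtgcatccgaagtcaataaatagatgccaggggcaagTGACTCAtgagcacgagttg

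The capitals mark the AP-1 motif TGACTCA, which begins at position -20 from the GENCODE start. The RefSeq start is at 49036518, so the last 28 bases of the window, which hold the motif, run from that start onwards. On both strands, 4.907% of the 32851 RefSeq promoter windows of this length (278 bases) held that motif. The E-box CACGTG, the M-box core CATGTG, the ETS core GGAAGT and the TATA box TATAAA, searched on both strands, were not in this window. These letters were present in 6.743%, 13.385%, 22.249% and 13.059% of the windows, in that order. The matches describe letters only, and no binding was measured.

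The 18 brain tables held 55268 cells, 1143 to 5121 per library, with library totals of 819438 to 5855047 expected counts and median counts per cell of 321 to 1363. No pair among the 153 pairs of brain libraries shared more than 3 cell barcodes. Cell types are the authors' deposited ones: Mg for microglia and MdC for monocyte-derived cells, each with numbered subtypes. The Mg cells of young stroke day 2 replicate 3 stood apart. They were 58 in number, 5 of their 8 microglial markers were at 0, and the summed level of those markers was 820 CPM (counts scaled to a common total per library and cell type), against 14995 to 15982 CPM in the other day 2 stroke libraries of young mice. The sum of the 8 monocyte-derived markers in these cells was 2320 CPM, against 4.87 to 284 CPM in the others. The young microglial fits and day 2 means below hold this library, and values without it stand beside those it touches most.

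Gpnmb in microglia of young mice was first seen at low counts at day 2 and was present in every day 14 library. It was listed at 0 in all 4 sham libraries, with 10874 microglia in all. At day 2 after stroke its level was 25.9 CPM in replicate 1, 11.2 CPM in replicate 2, 9.84 CPM in replicate 3 and 0 CPM in replicate 4. The value of replicate 3 came from a fraction of a count in the 58 cells described above, and 3 counts there would have been 114 CPM. At day 14 the level was 144 CPM in replicate 1, 142 CPM in replicate 2, 282 CPM in replicate 3 and 90.3 CPM in replicate 4. All 4 day 14 libraries were above all 4 day 2 libraries, which is the pattern that chose the gene and was seen in 3.8% of 10145 genes. The mean was 11.7 ± 10.7 CPM (SD, n = 4) at day 2 and 165 ± 82.4 CPM (SD, n = 4) at day 14. The day 2 mean lay between 7.02 and 15.7 CPM when single libraries were left out. Over other choices of cells and rounding it lay between 10.7 and 19.0 CPM.

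Monocyte-derived cells held far more Gpnmb than microglia of the same libraries. At day 2 after stroke the level in young MdC was 452 CPM in replicate 1, 748 CPM in replicate 2, 413 CPM in replicate 3 and 453 CPM in replicate 4. At day 14 it was 2276 CPM in replicate 1, 1477 CPM in replicate 2, 2341 CPM in replicate 3 and 1611 CPM in replicate 4. Every day 14 library was above every day 2 library. Among the 8080 genes tested in MdC, 4.85% showed the same separation. The fitted difference was 1.87 ± 0.29 (SE) on the log2 scale, a description like the levels themselves. Over all genes, 145 passed an adjusted p of 0.05 in that comparison by edgeR's quasi-likelihood test with Benjamini-Hochberg adjustment, which is 1.79% of those tested, 67 of them higher at day 14 (0.829%) and 78 lower (0.965%).

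In the 4 young sham libraries Gpnmb was listed at 0 in MdC, which were only 318 cells in all. In single sham libraries 3 counts would have been 26.8 to 164 CPM. Taken over the pooled sham cells, the increase was at least 37.0-fold by day 2 and at least 161-fold by day 14, each a lower bound set by 3 counts over the sham group. No fitted fold is given, because Gpnmb passed the filter on low counts in MdC only through the stroke groups and a fitted fold against a group at 0 depends on the prior count.

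Within the same library at day 14, the level in MdC exceeded that in Mg 15.8-fold in replicate 1, 10.4-fold in replicate 2, 8.29-fold in replicate 3 and 17.8-fold in replicate 4. Of all Gpnmb counts of young brains at day 14, 88.6% were in MdC and 10.6% in Mg, although MdC gave 27.3% and Mg 42.0% of all counts. At day 2, 98.8% of the Gpnmb counts were in MdC. The microglial marker sum in Mg at day 14 was 13435 to 17654 CPM with none of the 8 markers at 0, and the monocyte-derived sum was 38.9 to 221 CPM. In the pooled day 14 cells, the level of Gpnmb in Mg was 7.82% of its level in MdC, while the 8 monocyte-derived markers had a median of 0.608% (0.0899% to 9.93%). At day 2 the value was 1.58% for Gpnmb and 0.576% (0.313% to 3.91%) for the markers. How much RNA of MdC reached the droplets of Mg was not tested.

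**Figure D1:**
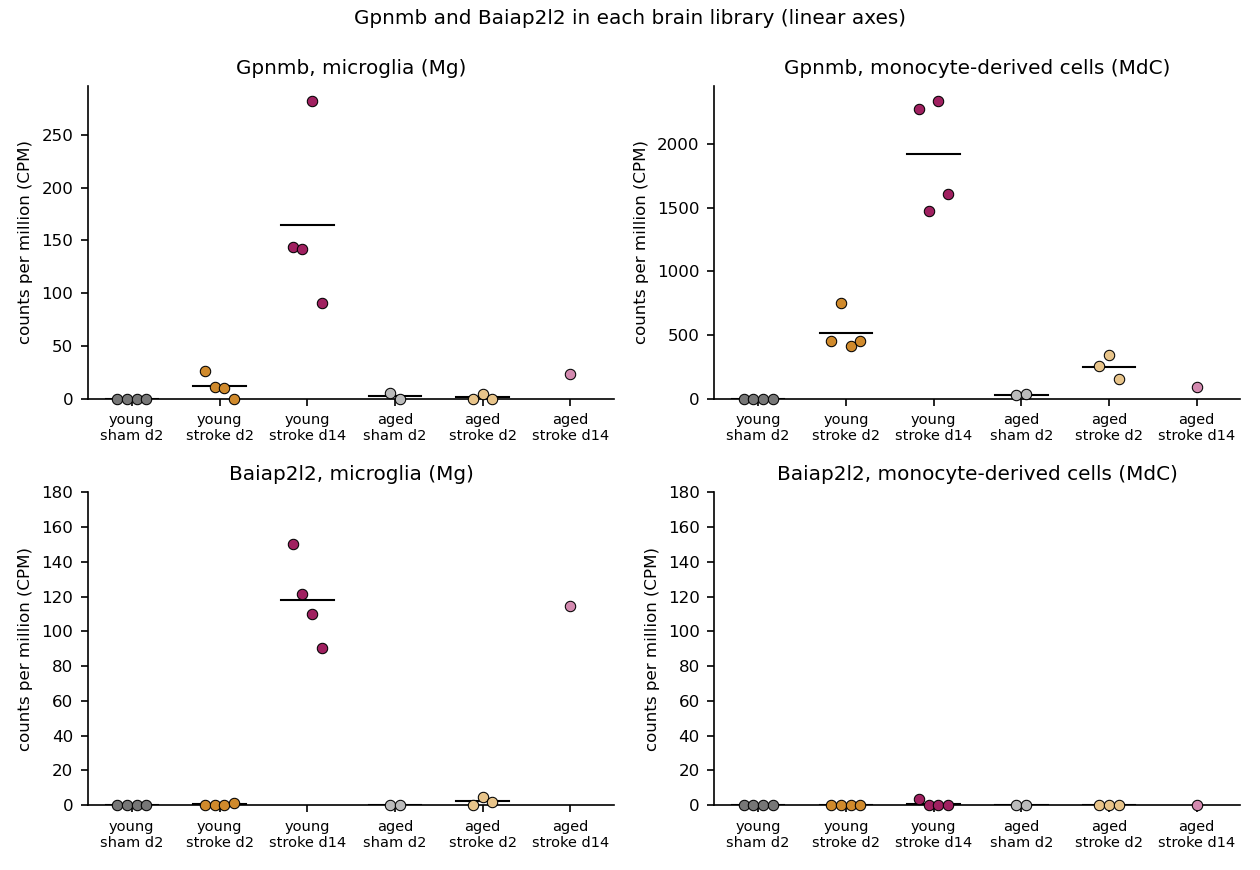
Levels of both genes in microglia (left) and monocyte-derived cells (right), in CPM, for each brain library; each point is 1 library, the horizontal lines are group means, and all axes are linear. In monocyte-derived cells the 4 young day 14 libraries lie between 1477 and 2341 CPM for Gpnmb, above the 4 day 2 libraries, while Baiap2l2 is near 0 there in every group.

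**Figure D2:**
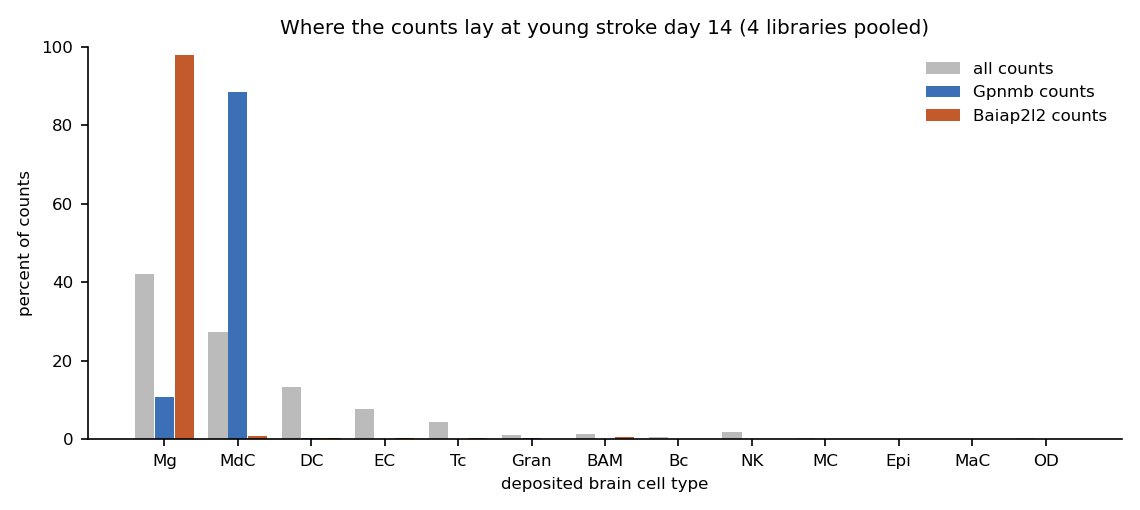
Percent of all counts, of Gpnmb counts and of Baiap2l2 counts that fell in each deposited brain cell type, over the 4 pooled young stroke day 14 libraries. The Gpnmb bar stands at 88.6% in MdC and the Baiap2l2 bar at 97.9% in Mg.

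Subtype levels are a description, since the clusters were made from these same cells. Subtype MdC6 carried most of the Gpnmb of the later time point. Its level at day 14 was 4117 CPM in replicate 1, 3102 CPM in replicate 2, 4500 CPM in replicate 3 and 3755 CPM in replicate 4. At day 2 the subtype had at least 20 cells in 3 libraries, with 1124, 1364 and 520 CPM, all below the day 14 values. MdC6 was 985 cells, 46.0% of the MdC counts and 89.0% of the Gpnmb counts of MdC at day 14, against 201 cells, 1.91% and 4.75% at day 2. At day 2 most Gpnmb counts of MdC were instead in MdC1, whose levels were 953, 1039, 810 and 969 CPM in replicates 1 to 4. At day 14 MdC1 reached 20 cells in 1 library, with 27 cells at 2478 CPM.

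The remaining subtypes had lower pooled levels at day 14. MdC3 was at 20.8, 37.7, 69.4 and 12.5 CPM in replicates 1 to 4 of day 2 and at 851, 45.6, 300.4 and 15.7 CPM in replicates 1 to 4 of day 14, ranges that overlap. Its pooled level was 36.7 CPM at day 2 and 366 CPM at day 14, where 15 of 380 cells had a count. MdC4 spanned 180 to 475 CPM at day 2 and 232 to 508 CPM at day 14, ranges that overlap. MdC5 spanned 96.3 to 170 CPM at day 2 and 239 to 465 CPM at day 14, ranges that do not overlap. MdC2 lay between 312 and 472 CPM at day 2 and between 0 and 216 CPM at day 14.

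In MdC6 all 8 monocyte-derived markers were detected at day 14, at a lower summed level than in MdC as a whole, and 7 of the 8 microglial markers were detected. Over its 985 cells at day 14 the monocyte-derived marker sum was 2493 CPM, against 9182 CPM in all MdC, and the microglial sum was 2927 CPM, against 1941 CPM. The microglial genes P2ry12 and Tmem119 were at 29.6 and 33.4 CPM in MdC6. In microglia without a Gpnmb count they were at 1082 and 471 CPM. The monocyte receptor Ccr2 was at 161 CPM in MdC6 and at 1240 CPM in all MdC.

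Subtype makeup differed between the times, and so did the levels in some subtypes. MdC5 and MdC6 were higher at day 14 and MdC2 was lower, while the ranges of MdC3 and MdC4 overlapped. When each library kept its own subtype shares and every subtype was set to its pooled day 2 level, Gpnmb in MdC at day 14 came to 662 ± 65.7 CPM (SD, n = 4), with a range of 597 to 729 CPM. The observed level was 1926 ± 446 CPM (SD, n = 4), and each observed day 14 library was above this whole range. The calculation rests on the levels that chose the gene and on clusters made from these same cells. It is a description, and the part of subtype makeup in the difference was not tested. At day 2 the calculation gave 505 CPM against 516 CPM observed, which is no check, since the subtype levels came from these same libraries. MdC6 made up 38.7% to 49.5% of the MdC counts in the day 14 libraries.

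**Figure D3:**
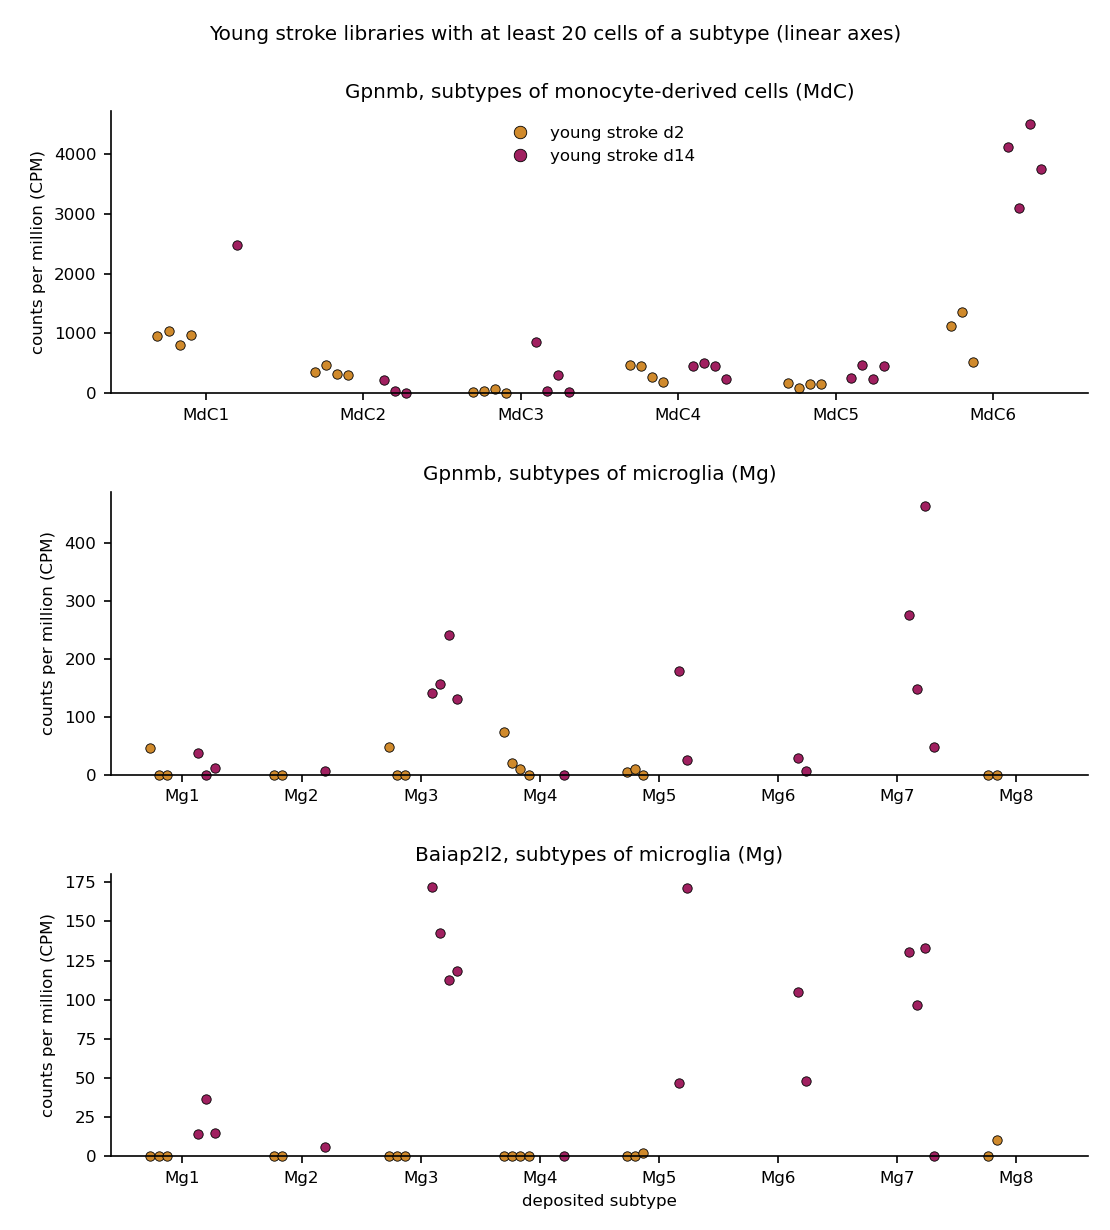
Levels in CPM, on linear axes, of Gpnmb in the MdC subtypes (top), of Gpnmb in the Mg subtypes (middle) and of Baiap2l2 in the Mg subtypes (bottom); each point is 1 young stroke library with at least 20 cells of the subtype. The day 14 points of MdC6 lie at 3102 to 4500 CPM, above its day 2 points.

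**Figure D4:**
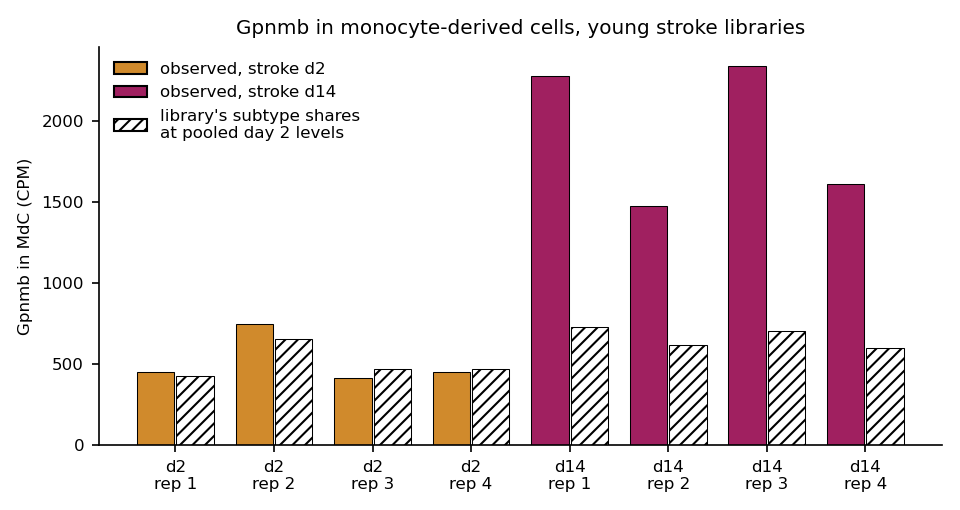
Gpnmb in monocyte-derived cells of each young stroke library, in CPM; filled bars are observed levels and hatched bars are the levels computed from the library's own subtype shares at pooled day 2 subtype levels. The bars of a pair are close at day 2 by construction, since the subtype levels are those of the day 2 libraries, and at day 14 the observed bars (1477 to 2341 CPM) exceed the hatched ones (597 to 729 CPM).

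Among microglia at day 14, Mg3 gave 65.8% of the Gpnmb counts and 65.2% of all microglial counts. The Gpnmb level in Mg3 was 140 CPM in replicate 1, 157 CPM in replicate 2, 242 CPM in replicate 3 and 130 CPM in replicate 4. In Mg7 it was 276, 149, 465 and 48.1 CPM in replicates 1 to 4. The spread of Mg7 was wide, with its lowest value in the library of the fewest counts per Mg7 cell. In the 2 libraries with at least 20 cells of each subtype, Mg5 was at 25.2 and 179 CPM and Mg6 at 6.05 and 29.6 CPM.

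A few cells carried much of the microglial Gpnmb. Cells with at least 5 counts of the gene numbered 17 in replicate 1, 3 in replicate 2, 24 in replicate 3 and 2 in replicate 4 of day 14. They held 43.0%, 20.1%, 51.1% and 8.25% of the Gpnmb counts of Mg in these libraries. The 46 cells had a median of 4723 counts, against 582 in microglia without a Gpnmb count. Their microglial marker sum was 13202 CPM, against 13557 CPM in the 425 microglia with fewer counts of Gpnmb and 15200 CPM in the 4699 without one. The monocyte-derived sum was highest in the 46 cells, at 339 CPM, against 196 and 99.8 CPM in the other 2 sets. Not every marker of that sum was highest there. Plac8 was at 3.21, 13.3 and 11.5 CPM and Ccr2 at 4.64, 3.73 and 4.52 CPM in the same order. The other markers of the sum were not looked at singly in these sets. P2ry12 was lowest in the 46 cells, at 199.8 CPM, against 459 and 1082 CPM. The part of these marker differences in the result was not tested. The doublet caller Scrublet marked only 0.121% of the brain cells and had not worked. Without the 5% of cells of highest Scrublet score in each library, the mean Gpnmb level of young microglia at day 14 was 162 ± 84.8 CPM (SD, n = 4). Since the score comes from a caller that had not worked, this value does not speak to doublets, whose part was not tested.

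Other types of the young day 14 brains held few Gpnmb counts. Granulocytes (Gran) were at 139, 101, 245 and 16.1 CPM in replicates 1 to 4, with 23.2 of their 27.8 counts in replicate 3. Their pooled level of 169 CPM was like that of Mg, at 165 CPM, but came from 9 of 363 cells. At aged stroke day 2, Gran had a pooled level of 150 CPM, from 24.4 counts in 6 of 204 cells, and Mg had 0.470 CPM. How much of the Gran signal was RNA from MdC was not tested. Border-associated macrophages (BAM) spanned 30.7 to 151 CPM on 9.32 counts in all, and dendritic cells (DC) 0 to 30.1 CPM. Gpnmb was below the filter on low counts in these types and was not tested. Of the melanocyte markers Mlana, Dct, Tyr and Pmel, only 2, Tyr and Pmel, were in any brain table. Both were listed at 0 in the Mg and MdC of the young stroke libraries. A gene missing from the young tables would also be listed at 0, so melanocyte RNA was not tested.

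Nearly all Baiap2l2 counts were in microglia. It was listed at 0 in microglia of all 4 young sham libraries and of day 2 replicates 1, 2 and 3, and stood at 1.36 CPM (3.74 counts in 4 cells) in day 2 replicate 4. At day 14 its level in Mg was 150 CPM in replicate 1, 122 CPM in replicate 2, 110 CPM in replicate 3 and 90.6 CPM in replicate 4. All 4 day 14 libraries were above the others, and their mean was 118 ± 25.0 CPM (SD, n = 4).

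Of the Baiap2l2 counts of young brains at day 14, 97.9% were in Mg. In MdC the gene was listed at 0 in every sham and day 2 library and in day 14 replicates 2, 3 and 4, and at 3.38 CPM (5.90 counts) in day 14 replicate 1. It did not pass the filter on low counts in MdC and was not tested there. Border-associated macrophages had a pooled 20.2 CPM at young day 14, all from 3.89 counts in 2 cells of replicate 1 (37.0 CPM), with the other 3 libraries at 0 and a pooled floor of 15.6 CPM. At aged day 14 they had 8.54 CPM, from less than 1 count.

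By subtype, Baiap2l2 at day 14 was at 172 CPM in replicate 1, 142 CPM in replicate 2, 113 CPM in replicate 3 and 118 CPM in replicate 4 of Mg3. Mg3 gave 74.6% of its microglial counts. In Mg7 the levels were 131, 96.9, 133 and 0 CPM in replicates 1 to 4. In the 2 libraries with at least 20 cells of each subtype, Mg5 was at 46.7 and 172 CPM and Mg6 at 48.1 and 105 CPM. Pooled levels were 17.7 CPM in Mg1 and 4.59 CPM in Mg2, each from 3 or fewer counts.

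The share of cells with a count was compared after each cell had been thinned to 500 counts, with shallower cells left out. At day 14, 5.77% ± 2.15 (SD, n = 4) of young microglia then had Gpnmb, and 5.53% ± 0.62 had Baiap2l2. Shallower cells left out were 2129 of 5170 microglia at day 14. In MdC the Gpnmb share was 15.1% ± 4.60 (SD, n = 4) at day 2 and 31.0% ± 1.85 (SD, n = 4) at day 14, with 1721 of 7225 and 795 of 2898 cells left out. Unthinned, the MdC shares ranged from 18.6% to 25.5% at day 2 and from 25.6% to 41.7% at day 14. Thinned to 1000 counts, the shares at day 14 were 10.3% ± 3.62 for Gpnmb and 10.8% ± 1.31 for Baiap2l2 in young microglia (SD, n = 4 each). In MdC the Gpnmb share was then 25.7% at day 2, with a range of 19.9% to 39.7%, and 47.9% at day 14, with a range of 40.6% to 67.3%. In endothelial cells, taken as a type that should lack the gene, the mean share at 500 counts was 0.340% at day 14, and the median count per cell was 578, against 1037 in MdC.

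Both transcripts were found together in some microglia. At day 14, 44 cells of replicate 1, 12 of replicate 2, 30 of replicate 3 and 3 of replicate 4 had a count of each gene. Gpnmb was present in 22.9%, 12.5%, 27.5% and 2.31% of the cells with Baiap2l2 in replicates 1 to 4, and in 12.9%, 8.48%, 21.7% and 3.69% of the other microglia. Cells with Baiap2l2 also had more counts, with medians of 2953, 1887, 2731 and 742 against 1774, 520, 1813 and 422 in the others. With each cell thinned to 500 counts, Gpnmb was present in 5.39%, 4.02%, 5.05% and 1.87% of the cells with Baiap2l2 and in 4.92%, 5.44%, 9.07% and 4.01% of the others. The share beside Baiap2l2 was the lower one in replicates 2, 3 and 4. After thinning only 0.0901% to 0.341% of the microglia of a library had both genes. These shares therefore rest on very few cells, and their order was not tested. Within Mg3, unthinned, the shares were 19.6%, 8.64%, 19.5% and 2.63% against 14.4%, 8.62%, 23.5% and 5.96%.

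In aged microglia Baiap2l2 was again near 0 until day 14, when its level lay within the young range, while Gpnmb lay below the young range. Baiap2l2 in Mg was listed at 0 in both aged sham libraries. At day 2 after stroke it was at 1.60 CPM in the male library and at 0 and 4.57 CPM in the female libraries, 1 count each where it was above 0. The single aged day 14 library had 115 CPM, from 153 counts in 124 cells. The single library leaves day 14 in aged mice without a replicate.

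Gpnmb in aged microglia was at 5.46 CPM in the female and 0 CPM in the male sham library. In the female library 8 of the 9 counts were in 1 cell. At day 2 after stroke it was at 0 CPM in the male library and at 0 and 4.13 CPM in the female libraries, the last from less than 1 count. The day 14 library had 23.6 CPM, from 31.5 counts in 21 cells, which is below each of the 4 young day 14 libraries. The fitted day 2 comparisons of Gpnmb in aged microglia rest on these few counts, most of them in 1 cell, and are not read as results. Over all genes, edgeR called 2.3% for aged stroke against aged sham and 0.018% for aged against young sham. For the interaction of age and stroke it called 0, with 623 at an unadjusted p under 0.05 and 1 by DESeq2.

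In aged MdC Gpnmb was at 27.6 CPM in the female and 35.0 CPM in the male sham library, 1 count each. At day 2 after stroke it was at 155 CPM in the male library and at 254 and 344 CPM in the female libraries, all below the 413 to 748 CPM of the young. The fitted difference between the ages at day 2 was -0.97 ± 0.33 (SE) on the log2 scale, and -1.68 with sex as a covariate. That fit called 0 genes by edgeR, with 154 at an unadjusted p under 0.05 and 13 by DESeq2. The single aged day 14 library had 92.6 CPM from 5.29 counts in 87 MdC cells, 13 of them MdC6. It differed from young day 14 by -4.88 ± 0.72 (SE) on the log2 scale, while all genes of that fit had a median of -0.70 and 0.0469% were called. The SE assumes that the lone library varies like all other groups. Age, sex, the separate gene table and the single library cannot be told apart at day 14. At day 2 age and the separate gene table cannot be told apart.

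At aged day 14, Mg held 83.1% of the Gpnmb counts and MdC 14.0% (5.29 counts), the reverse of the order of these shares in the young. The level was still higher in MdC, at 92.6 CPM, than in Mg, at 23.6 CPM. MdC were 3.12% of all counts in that library, against 27.3% in the pooled young libraries.

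A gene that would not have passed the filter on low counts (at least 4 libraries at 7.26 CPM in Mg or 10.6 CPM in MdC) without its higher group had to differ, so such genes are named as called but described by their levels alone. Gene groups tied to the functions of the members were read in the young fits of Mg and MdC, between day 14 and day 2 unless stated. In Mg, 6.93% of 10145 genes were called (3.47% higher and 3.46% lower), with a median log2 difference of 0.10 over all genes. In MdC the share was 1.79% and the median 0.04, and DESeq2 called 4.78% of all genes there. Counts from DESeq2, other scaling or fits with a library left out belong with their own share of all genes. Where that share is not printed, such a count is not read against edgeR's share. Scaling by library size alone moved the median of all genes in Mg to -0.19 and turned the sign of the medians of the Gpnmb relatives (-0.10) and of the I-BAR group (-0.13) there, so these medians are read against that of all genes. Without young stroke day 2 replicate 3, the day 14 against day 2 counts in Mg were 0 of 8 for the Gpnmb relatives, 1 of 3 for the MiT/TFE factors, 3 of 28 for the lysosomal genes, 0 of 8 for the I-BAR group and 13 of 20 for the disease-associated genes. The day 2 means in Mg were then 22.2 CPM for Mitf, 10.9 CPM for Baiap2 and 11325 CPM for Spp1.

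Of the relatives, receptors and sheddases of Gpnmb, 0 of 8 measured in Mg and 0 of 7 in MdC passed by edgeR, with 0 and 2 at an unadjusted p under 0.05. DESeq2 called 0 in Mg and 1, which was lower at day 14, in MdC. Their medians were 0.19 and -0.13 on the log2 scale. Cd44, a cell-surface receptor, was at 0.390 ± 0.779 CPM in sham, 22.7 ± 21.6 CPM at day 2 and 17.7 ± 12.3 CPM at day 14 in Mg (SD, n = 4 each). Without young stroke day 2 replicate 3 its day 2 level was 13.5 ± 13.7 CPM (SD, n = 3). Cd44 reached the filter's minimum in no sham library and in 3 libraries each of day 2 and day 14. Against sham, Cd44 and Sdc4 were called in Mg at day 14, of 8 genes of this list. Cd44 passed the filter only through the stroke groups, and Sdc4 rose by 1.92 ± 0.52 (SE) on the log2 scale with an edgeR adjusted p of 0.0257, where 15.2% of all genes were called (10.6% higher and 4.66% lower). With library-size scaling 4 of the 8 were called, 2 higher and 2 lower, where 33.8% of all genes were called. In MdC, Sdc4 was at 290 ± 38.2 CPM at day 2 and 101 ± 39.6 CPM at day 14, with an edgeR adjusted p of 0.0749.

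Of the MiT/TFE transcription factors, which drive lysosomal genes, 1 of 3 rose in Mg and 0 of 4 in MdC by edgeR. At an unadjusted p under 0.05 the MdC count was 1, and DESeq2 called 1 there, which was higher at day 14. The gene that rose was Mitf, by 1.91 ± 0.38 (SE) on the log2 scale with an edgeR adjusted p of 0.00972. Its level in Mg was 64.0 ± 12.8 CPM in sham, 22.4 ± 9.32 CPM at day 2 and 72.5 ± 30.7 CPM at day 14 (SD, n = 4 each), so that day 14 was near sham and day 2 was the low group. It fell in Mg between sham and day 2, by 1.28 ± 0.38 (SE), with an edgeR adjusted p of 0.0217, where 31.4% of all genes were called (15.7% higher and 15.7% lower). In MdC it was at 30.6 ± 8.32 CPM at day 2 and 65.1 ± 12.2 CPM at day 14, with an edgeR adjusted p of 0.176.

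Of the lysosomal genes of the MiT/TFE network, 3 of 27 were called in Mg and 1 of 29 in MdC, all higher, with medians of 0.67 and 0.10 on the log2 scale. DESeq2 called 11 of the 27 in Mg, a count not to be set beside edgeR's share of all genes. The gene called in both was Atp6v0d2, a subunit of the proton pump that acidifies lysosomes. It was listed at 0 in Mg of sham and day 2 and was at 13.8 ± 9.52 CPM at day 14. In MdC it was at 1.88 ± 3.21 CPM at day 2 and 68.7 ± 37.8 CPM at day 14 (SD, n = 4). In both types it passed the filter only through day 14, so beside it 2 called genes remain in Mg and 0 in MdC. Without young stroke day 2 replicate 3, 0 of these genes passed in MdC by edgeR, with 3 at an unadjusted p under 0.05. DESeq2 with all libraries called 1 in MdC. Hexa and Npc2, which break down gangliosides and export cholesterol, rose in Mg by 1.37 ± 0.27 and 1.36 ± 0.24 (SE). Against sham, 10 of 27 rose in Mg at day 2, where 31.4% of all genes were called (15.7% higher). Without young stroke day 2 replicate 3, 12 of 28 rose and 1 fell, and by DESeq2 7 of 27 rose and 2 fell. At day 14, 17 of 27 were called higher in Mg against sham, Atp6v0d2 among them, where 15.2% of all genes were called (10.6% higher). In MdC 16 of 29 rose at day 2, where 6.71% of all genes were called (5.66% higher and 1.05% lower), and 15 of 29 at day 14, where 5.15% were called (4.21% higher and 0.941% lower). The cathepsin genes Ctsb and Ctsd were among those that rose in MdC at day 2, by 3.03 ± 0.33 and 3.97 ± 0.52 (SE). The count of 16 was 8 with library-size scaling and 10 without young stroke day 2 replicate 3. Both of these fits also called fewer genes in all. With single libraries left out, 284 to 524 genes were called in all, against 542 with all of them.

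Of the I-BAR proteins and their actin partners, the group of Baiap2l2, 0 of 8 passed in Mg and 0 of 8 in MdC by edgeR, with 1 and 3 at an unadjusted p under 0.05 and 0 in both by DESeq2. Their medians were 0.17 and -0.22 on the log2 scale. Baiap2, an I-BAR relative of Baiap2l2, was at 4.68 ± 4.09 CPM in sham, 11.8 ± 2.73 CPM at day 2 and 18.8 ± 8.89 CPM at day 14 in Mg (SD, n = 4 each). Against sham, 3 of the 8 passed in Mg at day 2, where 31.4% of all genes were called. At day 14, 3 of the 8 passed against sham, 1 higher and 2 lower, where 15.2% of all genes were called (4.66% lower). With library-size scaling 5 of the 8 were called, 1 higher and 4 lower, where 33.8% of all genes were called, and DESeq2 called 4, 1 higher and 3 lower. Baiap2 rose by 2.42 ± 0.54 (SE) with an edgeR adjusted p of 0.00946. Mtss1, another I-BAR protein, fell by 1.76 ± 0.25 (SE). Eps8, a regulator of actin bundling, was also called, but passed the filter only with its sham libraries, at 18.04 ± 8.21 CPM in sham and 2.31 ± 2.70 CPM at day 14 (SD, n = 4 each).

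Of the 20 disease-associated microglial genes, a program described in neurodegeneration, 13 were called higher in Mg and 0 lower, with a median of 1.59 on the log2 scale. This list was set with results of these libraries known and is no independent support. The lipid carrier gene Apoe rose by 4.85 ± 0.58 and the cystatin gene Cst7 by 3.44 ± 0.43 (SE). Of the 13, Igf1, Axl and Itgax passed the filter only with their day 14 libraries. The growth factor gene Igf1 was at 26.99 ± 12.6 CPM at day 2 and 450 ± 169 CPM at day 14, and the receptor gene Axl at 9.03 ± 7.19 and 84.0 ± 32.5 CPM (SD, n = 4 each). Spp1 was at 11623 ± 4150 CPM at day 2 and 7465 ± 6637 CPM at day 14. Against sham, 15 of the 20 rose in Mg at day 2, where 31.4% of all genes were called. At day 14, 20 of 20 were called higher against sham, where 15.2% of all genes were called. Igf1, Axl and Itgax are in that count and again passed the filter only with their day 14 libraries. In each count 6 genes were at the filter's minimum in no sham library. In MdC 5 of 19 were called higher, namely Igf1 and Csf1, which passed the filter only with day 14, and Axl, Apoe and Clec7a. DESeq2 called 8 (7 higher, 1 lower), where it called 4.78% of all genes. Without young stroke day 2 replicate 3, 2 were called. Over all genes, 45 to 191 were called with single libraries left out, against 145 with all of them. Against sham, 7 of 19 were called higher in MdC at day 2 and 11 of 19, Igf1 among them, at day 14, where 6.71% and 5.15% of all genes were called.

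**Figure D5:**
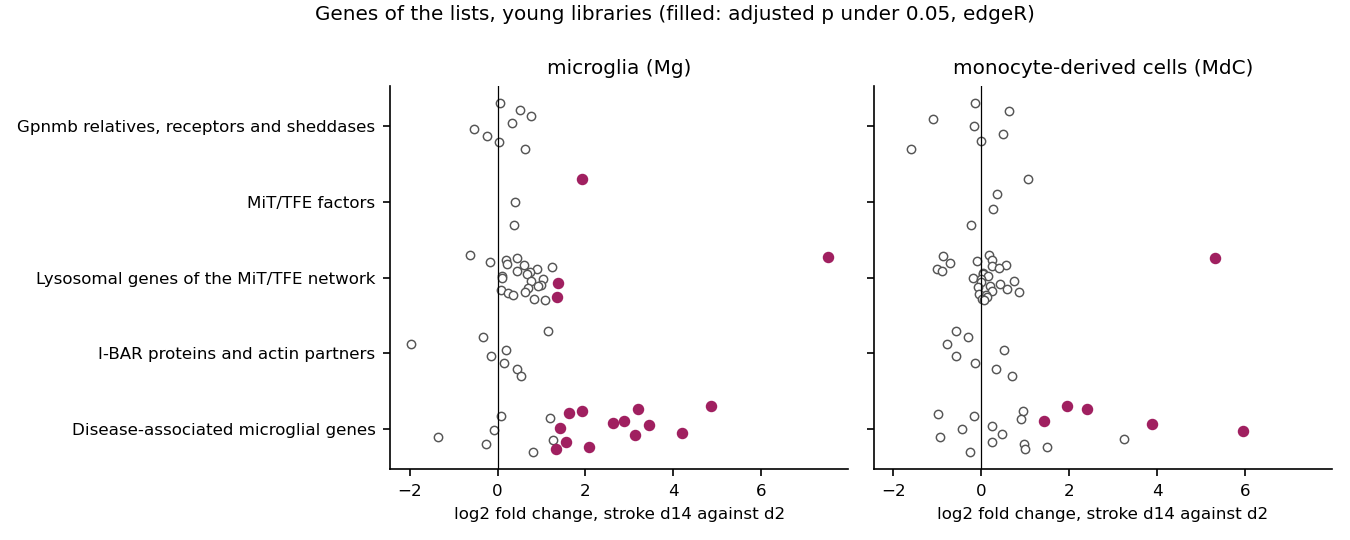
Log2 fold change between day 14 and day 2 after stroke of each measured gene of the 5 lists, in microglia (left) and monocyte-derived cells (right) of young mice; each point is 1 gene, and filled points passed an adjusted p of 0.05 by edgeR. The filled points are mostly disease-associated microglial genes, 13 of 20 in microglia and 5 of 19 in monocyte-derived cells.

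The genes whose microglial pattern was most like that of each member were ranked by Pearson's r of log2(CPM + 1) over the Mg of the 18 brain libraries, among 9218 genes. For Gpnmb they were Hpse (r = 0.896), Apoe (0.881), Ank (0.879), Itgax (0.877) and Apoc1 (0.871), with Baiap2l2 at rank 13 (0.813). For Baiap2l2 they were Ank (0.967), Actr3b (0.952), Colec12 (0.916), H2-D1 (0.911) and B2m (0.906), with Gpnmb at rank 28. The points share libraries, times and depth, so the values only describe these samples.

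Over 48 profiles of cell type by group, which bring in MdC and the other types, the neighbours differed. For Gpnmb they were Olr1 (r = 0.765), Cstb (0.708), F7 (0.679), Fabp3 (0.654) and Sdcbp (0.633), and for Baiap2l2 they were Fabp3 (0.561), B2m (0.489), Cst7 (0.487), Eya4 (0.482) and Lag3 (0.471). The r between the members was 0.262. Olr1, a scavenger receptor for oxidised lipoprotein, was at 31.6 CPM in pooled MdC at day 2 and 21.3 CPM at day 14, where Gpnmb was higher at day 14. Cst7 was at 1845 CPM in pooled Mg and 39.6 CPM in pooled MdC at day 14.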

How the data were processed

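Drop-seq libraries of brain cells were analysed from the authors' deposited tables of expected counts per gene and cell, whose values are not whole numbers. The deposited metadata gave the count of genes, the total and the percent of mitochondrial counts per cell, and the authors' cell types. Seurat and mm10 are named per the submitters' processing notes; the aligner and the filters on cells are not given in the sources used here.

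For each library, expected counts of a cell type were added up and scaled to that sum's own total (CPM). The sums were rounded and fitted with edgeR 4.0.16 (TMM scaling, filterByExpr, quasi-likelihood test, Benjamini-Hochberg adjustment over all genes tested), in types with at least 20 cells per library. The young fits held all 12 young libraries, so their comparisons share samples. Alternatives were DESeq2 1.42.0, other scaling, no filter, deeper cells, doublets (Scrublet, in scanpy 1.11.5), the replicate block and libraries left out. Fits of aged day 14 were added after seeing the data. The planned tests of the members were run but are not given as tests, because the members were chosen on these levels. On simulated data for MdC day 14 against day 2 (8080 genes), 25% of 2-fold and 86% of 4-fold changes were recovered, with 4 false calls.

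A value of at least 0.5 in a cell was read as a count. Folds against 0 are lower bounds from a floor of 3 counts, and intervals cover counting error only. The labels name the libraries of a group as replicates, and the libraries were taken as separate pools of animals, which the labels do not state. Sequencing batches are not given in the sources used here. Genes were named by rule: the 2 members, for each member the 5 genes with the highest Pearson's r over libraries and over profiles of type by group (mean of at least 5 CPM), and in each list up to 4 called genes of largest change plus its receptors and regulators by value. The members and lists were chosen with earlier results of these data known. No value of columns from other samples was used.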

Additional observations from a re-analysis of the deposited data

Results flagged for a closer look

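Of 25 groups of 4 samples checked for a sample far from the others, 8 had one, where chance gives about 1 in 20. In 6 of the 8 the other 3 libraries were at 0 and any value above 0 stands apart, so that rate does not apply to them. Gpnmb in MdC of young stroke day 2 replicate 2 was at 748 CPM, against 413 to 453 CPM in the other 3 libraries, and in subtype MdC5 the same library was the lowest, at 96.3 CPM. Baiap2l2 in Mg of young stroke day 2 replicate 4 was at 1.36 CPM, with the other 3 libraries at 0.

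In MdC of young stroke day 14 replicate 1, Baiap2l2 was at 3.38 CPM while the other 3 libraries were at 0. By subtype that library had 10.1 CPM in MdC3, 5.89 CPM in MdC4, 2.18 CPM in MdC5 and 2.33 CPM in MdC6. These 5 values rest on the same 5.90 counts. The library also had the highest Baiap2l2 level in Mg among the day 14 libraries (150 CPM), and the source of the counts in MdC was not tested.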

How the results depend on the processing

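The levels of Gpnmb chose the gene, so the range of its fitted differences describes the fits and supports no call. Between day 14 and day 2 in young MdC it ran from 1.74 to 1.94 over the settings and from 1.76 to 2.07 with single libraries left out. For MdC day 14 against day 2, the 145 genes became 386 with DESeq2, 89 with cells of at least 800 counts and 45 to 191 with single libraries left out (lowest without day 2 replicate 4). With the replicate block 469 genes were called, and Gpnmb was at 1.88. Same-numbered MdC libraries of day 2 and day 14 had correlations of deviations of 0.257, 0.749, 0.65 and 0.347 in replicates 1 to 4. Same-numbered pairs with sham ran from -0.0693 to 0.116, and pairs of different numbers from -0.63 to 0.519. The labels give no pairing by number, so the main fits left the number out. Whether the number marks something shared by the stroke libraries was not tested. For day 2 against sham, the 542 genes became 355 with library-size scaling, 117 with deeper cells and 284 to 524 with single libraries left out. For day 14 against sham, the 416 became 103 with deeper cells and 246 to 415 with single libraries left out.

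In aged Mg at day 2, the 255 genes became 466 with DESeq2, 393 without a filter, 0 when only the groups compared were fitted and 0 to 357 with single libraries left out (0 without the sham female, 15 without the sham male, 61 without the first stroke female). The fitted difference of Gpnmb there ranged from -5.05 to 2.66, so not even its sign is given as a result. Fits of the 6 aged libraries and of the ages at day 14 in Mg were run and are not used as tests, since the aged day 14 arm is 1 library and the contrasts rest on the levels that chose the genes. The aged against young day 14 difference of Gpnmb in MdC was -4.89 with only the groups compared. For aged against young MdC at day 2, the 0 genes called became 13 with DESeq2, 32 without a filter, 3 with sex as a covariate and 0 to 65 with single libraries left out (65 without young stroke day 2 replicate 2). The cause of these changes was not tested. No batch could be fitted.

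Gpnmb in aged MdC at day 14 rests on 5.29 counts in 1 library. The young sham MdC were 318 cells in 4 libraries.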
